A study of Mus musculus with 17 samples.

Results

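The genes described here are the mouse genes of meiotic recombination and synapsis, 36 in number, most of them silent outside the germ line. They were found in the deposited promoter tables by matching the RefSeq transcript of each start site to a gene symbol, with repeated positions taken once. Of the 36 genes, 34 had a start site, out of 21399 genes in those tables, and their 38 distinct start sites stood among 24084. Rad21l, a meiotic cohesin kleisin, and Rnf212, a RING protein that promotes crossovers, had no matching start site and have no values below. By the authors' CpG classes 24 of the 34 used start sites were high-CpG promoters, 1 was low-CpG and 9 carried no class. The label high-CpG therefore held for 24 of the 25 classed genes.

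In meiosis, programmed DNA breaks are repaired on the homologous chromosome, and the paired homologues are held together by the synaptonemal complex. The genes for these steps are active in spermatocytes and have ended by the time sperm mature, when most histones give way to protamines. Micrococcal nuclease (MNase) cuts DNA that protein does not hold, and the sequenced fragments report packaging at promoters, not RNA levels.

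The study digested chromatin with MNase and sequenced the fragments as paired ends. The standard sperm library was the supernatant of a digest of sperm from 10-week-old C57/B6J mice, collected by swim-up from the vas deferens and cauda epididymis and fixed with formaldehyde. Further sperm libraries came from titrations with 0.5, 2, 10 and 50 units without centrifugation, and with 1, 5, 20 and 100 units split into supernatant and pellet. The ES cell library was the supernatant of a digest of E14 cells, an embryonic stem cell line of 129 X Ola background grown in serum and LIF without feeders. The standard sperm digest used far less enzyme per cell than the ES cell digest, and fixation is described for sperm only. Strain, fixation and enzyme amount therefore cannot be told apart from cell type. How many mice stand behind a sperm library is not stated in the labels, each group was 1 library, and no difference below has a replicate check or a p-value.

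Values for standard sperm, ES cells and unspun sperm are fragments of about the length that a nucleosome protects. They are expressed as fragment equivalents, the deposited pileup divided by 22, which is what an isolated fragment adds. For the 8 supernatant and pellet libraries, deposited as counts, the divisor was the mean count of an isolated fragment, 2.00 to 3.25. The fragment length in those 8 libraries is not stated. The average start site held 21.6 fragments within 1000 bp in standard sperm and 32.2 in ES cells. Each promoter is therefore given as its fragments and as the log2 ratio of its share of all promoter fragments in standard sperm over that in ES cells, with a pseudocount of 1 fragment. Brackets give the exact 95% interval of that ratio, which was made without the pseudocount and covers counting error only. A ratio above 0 means that the gene held more of the promoter fragments in sperm than in ES cells, except where fragments are few. The same pseudocount was added to both libraries although the ES cell library is deeper. It therefore pulls promoters with few or no fragments towards a ratio above 0, whatever their shares. The percentages of all genes and of all high-CpG genes above 0, given below, include such promoters.

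Promoter sequences were matched by symbol for 28 of the 34 genes in RefSeq, assembly GRCm38.p6, and none was matched for Spo11, Tex11, Terb2, Tex15, Meiob and Majin. Those of 8 high-CpG genes are shown. Tex12, Hormad1, Sycp3, Stag3, Syce2 and Sycp1 are the high-CpG genes whose sequence holds both motifs marked below, and Mnd1 and Rec8 stand near the ends of the sperm to ES cell range. Each runs from 220 bases before to 30 bases after the RefSeq start site, 5′ to 3′ along the gene. The sequences lie at chr9:50561239-50561488 (Tex12, minus strand), chr3:84155757-84156006 (Mnd1, minus strand), chr3:95559457-95559706 (Hormad1, plus strand), chr10:88459367-88459616 (Sycp3, plus strand), chr5:138280289-138280538 (Stag3, plus strand), chr3:102936071-102936320 (Sycp1, minus strand), chr8:84872038-84872287 (Syce2, plus strand) and chr14:55617946-55618195 (Rec8, plus strand). Capitals mark the E2F-type letters TCCCGC, which read GCGGGA on the other strand, and the E-box CACGTG, which reads the same on both. The capitals at the end of Syce2 are the start of E2F-type letters that run past the stretch shown.
Tex12: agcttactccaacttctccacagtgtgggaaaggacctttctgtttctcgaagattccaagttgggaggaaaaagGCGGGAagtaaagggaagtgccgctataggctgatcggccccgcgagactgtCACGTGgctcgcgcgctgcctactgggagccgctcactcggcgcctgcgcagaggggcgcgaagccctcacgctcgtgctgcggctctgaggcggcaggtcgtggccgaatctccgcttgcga
Mnd1: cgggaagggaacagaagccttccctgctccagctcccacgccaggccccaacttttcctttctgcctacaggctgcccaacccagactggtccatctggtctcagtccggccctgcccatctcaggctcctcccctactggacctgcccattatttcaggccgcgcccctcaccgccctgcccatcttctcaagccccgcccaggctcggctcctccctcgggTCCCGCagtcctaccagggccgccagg
Hormad1: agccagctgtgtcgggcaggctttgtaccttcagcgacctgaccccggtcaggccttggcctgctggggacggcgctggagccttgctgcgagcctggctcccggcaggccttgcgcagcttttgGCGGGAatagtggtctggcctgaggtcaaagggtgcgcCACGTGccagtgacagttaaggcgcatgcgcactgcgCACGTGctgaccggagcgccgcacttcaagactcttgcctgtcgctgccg
Sycp3: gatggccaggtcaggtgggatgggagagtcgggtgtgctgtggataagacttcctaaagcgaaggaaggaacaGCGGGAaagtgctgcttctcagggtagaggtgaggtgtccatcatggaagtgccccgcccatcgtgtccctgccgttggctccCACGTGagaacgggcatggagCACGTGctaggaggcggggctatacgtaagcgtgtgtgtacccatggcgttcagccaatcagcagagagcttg
Stag3: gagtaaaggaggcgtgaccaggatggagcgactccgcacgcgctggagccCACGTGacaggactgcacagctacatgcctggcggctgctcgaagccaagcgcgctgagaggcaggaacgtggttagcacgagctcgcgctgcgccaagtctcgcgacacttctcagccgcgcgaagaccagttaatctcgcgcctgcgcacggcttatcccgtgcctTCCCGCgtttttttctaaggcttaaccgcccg
Sycp1: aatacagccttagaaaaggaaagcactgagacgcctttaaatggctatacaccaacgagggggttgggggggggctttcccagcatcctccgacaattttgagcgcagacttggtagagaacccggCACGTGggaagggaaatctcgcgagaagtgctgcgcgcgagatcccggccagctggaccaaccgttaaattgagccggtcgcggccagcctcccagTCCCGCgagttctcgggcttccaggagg
Syce2: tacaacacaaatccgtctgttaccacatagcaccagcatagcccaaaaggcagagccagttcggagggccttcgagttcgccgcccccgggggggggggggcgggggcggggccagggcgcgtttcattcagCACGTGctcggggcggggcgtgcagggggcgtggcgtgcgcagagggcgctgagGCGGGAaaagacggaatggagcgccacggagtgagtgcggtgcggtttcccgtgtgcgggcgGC
Rec8: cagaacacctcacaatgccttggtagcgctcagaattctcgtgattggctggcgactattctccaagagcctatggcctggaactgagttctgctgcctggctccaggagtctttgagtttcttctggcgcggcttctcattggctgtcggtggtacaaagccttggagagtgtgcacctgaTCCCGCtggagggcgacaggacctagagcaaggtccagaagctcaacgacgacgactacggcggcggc

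Tex12 and Mnd1 had the highest ratios of these 8 genes, Sycp3 stood near 0, and Sycp1 and Rec8 had the lowest. Tex12 and Sycp1, far apart in ratio, hold both motifs, while Mnd1 and Rec8, at opposite ends, each hold the E2F-type letters alone. These 8 genes were picked for their letters and their ratios, so whether the letters go with the ratio was not tested. Proteins that read such letters, E2F6 and the MGA and MAX pair, are known for silencing germline genes in mouse ES cells.

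Across the 34 meiotic genes the log2 ratio of standard sperm over ES cells had a median of 0.15 and ran from -1.06 to 1.51. The sign of that median depended on the window, since it was -0.05 within 200 bp of the start site and -0.04 over 2000 bp to each side. It was above 0 for 21 genes and below 0 for 13, while 46.5% of all genes were above 0 and 53.5% below it, with a median of -0.06. By a fold of 1.5, 8 meiotic genes were higher in sperm, which is 23.5% of them against 17.9% of all genes, and 5 were lower, which is 14.7% against 22.1%. Pooled over the 34 promoters there were 884 fragments in standard sperm and 1244 in ES cells, a log2 ratio of shares of 0.08 (-0.04 to 0.21). That interval holds 0, so a difference in the pooled share was not detectable at this depth.

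The 24 high-CpG genes of the set stood further from their own class than the whole set did from all genes. Their median log2 ratio was 0.11 and their pooled ratio 0.10 (-0.06 to 0.25), while all 10081 high-CpG genes had a median of -0.25 and a pooled ratio of -0.24 (-0.25 to -0.23). Of the 24 genes, 15 (62.5%) were above 0 and 9 below it, against 34.2% above and 65.8% below among all high-CpG genes. Of the same 24, 5 (20.8%) were at least 1.5-fold higher in sperm and 3 (12.5%) at least 1.5-fold lower, against 9.49% higher and 29.4% lower among all high-CpG genes. With 1 library each, this describes these libraries and is not a test of the genes as a class. The next values pool all 34 genes, whatever their class. In unspun sperm over the same ES cell library their ratio lay below that of all high-CpG start sites at each dose. There the 34 genes pooled stood at -0.48 at 0.5 units and 0.21 at 50 units. All high-CpG start sites stood at 0.07 and 0.32, within the wide intervals of the set. Against the average high-CpG promoter, 26 of the genes stood at 0.790, 0.998, 1.10 and 1.14 times in unspun sperm, by rising dose. These 26 stood at 1.12 times in ES cells, so the ratios over ES cells start from a share above the class.

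**Figure D1:**
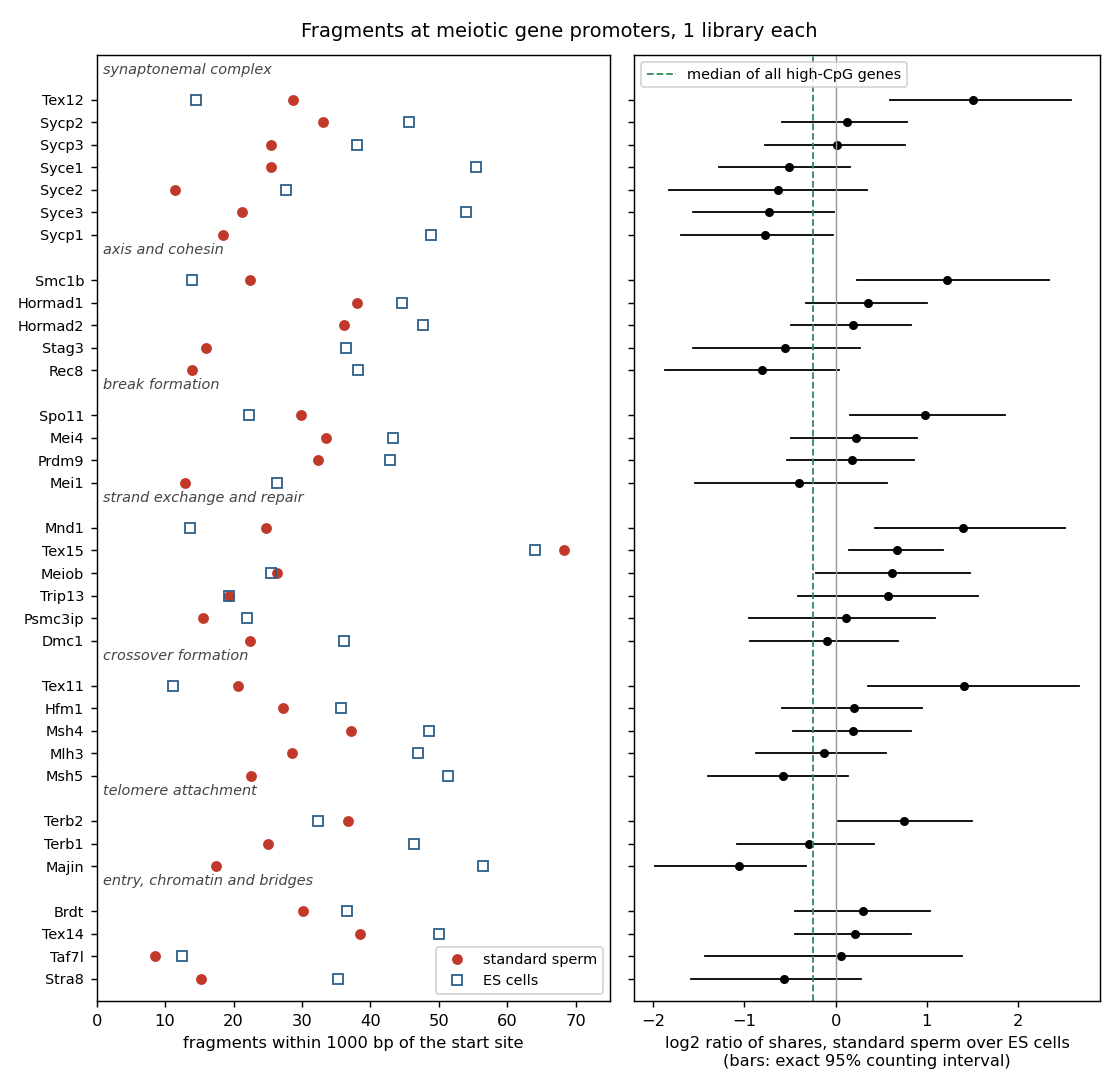
Left, fragment equivalents within 1000 bp of the start site of each meiotic gene in standard sperm (filled) and in ES cells (open), grouped by role. Right, log2 ratio of the shares with its exact 95% counting interval; the dashed line is the median of all high-CpG genes, -0.25. Tex12, Tex11, Mnd1 and Smc1b lie above 1 and only Majin lies below -1.

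The counting interval of a single gene excluded 0 for 10 of the 34. It lay above 0 for Tex12, Tex11, Mnd1, Smc1b, Spo11, Terb2 and Tex15, which is 7 genes where 11.4% of all genes had such an interval, and below 0 for Majin, Sycp1 and Syce3, which is 3 genes where 10.9% did. Of the 24 high-CpG genes, 5 had an interval above 0 and 1 below it, where 4.12% and 14.1% of all high-CpG genes did. The intervals of the other 24 held 0; some of these promoters, such as Hormad1 and Tex14, were deeper than Tex11 or Smc1b, with ratios nearer 0. Stag3, Stra8 and Msh5, at -0.56, -0.57 and -0.58, lay just inside the 1.5-fold limit, and Trip13 at 0.57 did so on the other side.

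The 7 genes of the synaptonemal complex covered a wide range. Tex12, a central element protein, held 28.7 fragments in standard sperm and 14.5 in ES cells, a log2 ratio of 1.51 (0.60 to 2.58), the highest of the 34. Sycp1, the transverse filament that bridges the homologues, held 18.5 fragments in standard sperm and 48.9 in ES cells, a log2 ratio of -0.78 (-1.69 to -0.03). Over 2000 bp to each side the Sycp1 ratio was -0.08, and that of Tex12 was 0.94. Syce2, which forms a complex with Tex12, held 11.5 fragments in standard sperm and 27.7 in ES cells, a log2 ratio of -0.63 (-1.83 to 0.34). Syce3, also of the central element, held 21.3 fragments in standard sperm and 54 in ES cells, a log2 ratio of -0.73 (-1.56 to -0.02). The central element genes thus had both signs, and the order depended on the window: Syce3 was at 2.24 within 200 bp and Syce2 at 0.32 over 2000 bp to each side. Sycp3, a lateral element protein and a common stain for meiotic chromosomes, held 25.5 fragments in standard sperm and 38 in ES cells, a log2 ratio of 0.02 (-0.78 to 0.76). Sycp2 and Syce1 stood at 0.12 and -0.51, so 3 of the 7 genes were above 0, and the pooled ratio was -0.22 (-0.50 to 0.07).

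The chromosome axis and its cohesin gave both signs as well. Smc1b, a meiotic cohesin subunit, held 22.4 fragments in standard sperm and 14 in ES cells, a log2 ratio of 1.22 (0.23 to 2.34). Over 2000 bp to each side its ratio was 0.39. Its window also covers the start site of its neighbour Ribc2. Rec8, the kleisin that holds sister chromatids together, held 14 fragments in standard sperm and 38.2 in ES cells, a log2 ratio of -0.81 (-1.87 to 0.04). The ring partners Smc1b and Rec8 thus stood at opposite ends of the set, and only the interval of Smc1b left out 0. Hormad1 and Hormad2, HORMA-domain proteins of the unsynapsed axis, stood at 0.35 and 0.19, and the cohesin subunit Stag3, 571 bp from Gpc2, stood at -0.56.

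Of the genes for break formation, Spo11, which cuts the DNA, held 29.9 fragments in standard sperm and 22.3 in ES cells, a log2 ratio of 0.98 (0.16 to 1.86). Prdm9, the histone methyltransferase that places the breaks, held 32.4 fragments in standard sperm and 42.9 in ES cells, a log2 ratio of 0.18 (-0.53 to 0.86). Mei4 and Mei1, both needed for breaks, stood at 0.22 and -0.40. Only the Spo11 interval left out 0 among these 4 genes.

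The 6 genes of strand exchange and repair were the role with the highest median, 0.60, and 5 of them were above 0. Their pooled log2 ratio was 0.54 (0.24 to 0.85), and the roles were compared after the values were known. Mnd1, which with Psmc3ip stimulates strand invasion, held 24.8 fragments in standard sperm and 13.6 in ES cells, a log2 ratio of 1.40 (0.43 to 2.51). Over the whole span of 2000 bp to each side, the Mnd1 ratio was 0.14. The rest of the role then stood at 0.59 (Tex15), 0.58 (Meiob), 0.00 (Psmc3ip), -0.01 (Trip13) and -0.14 (Dmc1). Tex15, a factor needed for break repair in mouse spermatocytes, is the only gene of the set classed as low-CpG, while 9 carry no class. Tex15 held 68.3 fragments in standard sperm and 64.1 in ES cells, a log2 ratio of 0.67 (0.15 to 1.18). All low-CpG genes together had a median of 0.24. Dmc1, the meiotic recombinase, held 22.4 fragments in standard sperm and 36.2 in ES cells, a log2 ratio of -0.09 (-0.94 to 0.68). The single-strand binding protein gene Meiob stood at 0.62, the ATPase gene Trip13, 70 bp from Brd9, at 0.57, and Psmc3ip at 0.11.

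Among the crossover genes, Tex11, an X-linked factor of male meiosis, held 20.6 fragments in standard sperm and 11.1 in ES cells, a log2 ratio of 1.41 (0.35 to 2.67). Genes of the X chromosome as a whole had a median of 0.24, and the other X-linked gene of the set, Taf7l, stood at 0.06. Msh5, which pairs with Msh4 to stabilise recombination intermediates, held 22.5 fragments in standard sperm and 51.4 in ES cells, a log2 ratio of -0.58 (-1.40 to 0.13). Msh4 itself stood at 0.19 (-0.47 to 0.83), an interval that overlaps that of Msh5. Within 200 bp of the start site the partners stood at 1.48 (Msh4) and 1.38 (Msh5). There Msh4 held 5.41 fragments in standard sperm and 2.64 in ES cells, and Msh5 held 0.636 and 0. The Msh5 value within 200 bp thus rests mostly on the pseudocount. The helicase gene Hfm1 stood at 0.20 and Mlh3, of the resolving MutL pair, at -0.13.

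The 3 genes that tie telomeres to the nuclear envelope spanned most of the range. Terb2 held 36.7 fragments in standard sperm and 32.4 in ES cells, a log2 ratio of 0.75 (0.03 to 1.49), from a start site 82 bp from that of Patl2. Majin, the membrane anchor, held 17.5 fragments in standard sperm and 56.5 in ES cells, a log2 ratio of -1.06 (-1.98 to -0.32), the lowest of the 34. Terb1 stood between these partners at -0.29.

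The genes of meiotic entry, germline chromatin and cell bridges ran from -0.57 to 0.30. Stra8, the retinoic acid target that starts meiosis, held 15.3 fragments in standard sperm and 35.2 in ES cells, a log2 ratio of -0.57 (-1.59 to 0.28). Brdt, the testis bromodomain protein, held 30.2 fragments in standard sperm and 36.6 in ES cells, a log2 ratio of 0.30 (-0.45 to 1.03). Tex14, of the intercellular bridges, stood at 0.21, and no interval of these 4 genes, Taf7l included, left out 0.

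**Figure D2:**
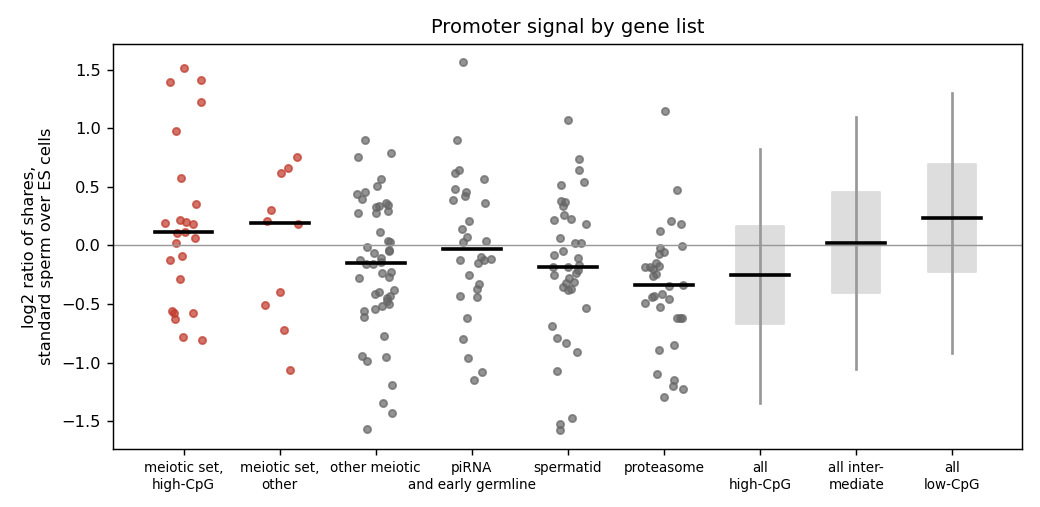
Log2 ratio of shares, standard sperm over ES cells, for the meiotic set and for other gene lists (points are genes, thick lines medians), and for all genes of each CpG class (box, lower to upper quartile; thin line, 5th to 95th percentile). The high-CpG genes of the meiotic set have a median of 0.11 and all high-CpG genes one of -0.25.

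Other genes that act in meiosis, mostly not restricted to the germ line, gave lower values as a list. Their 50 genes had a median of -0.15, with 18 above 0, and the 32 of them with high-CpG promoters had a median of -0.19. Among the highest with at least 20 fragments in both libraries together were Smc3, a general cohesin subunit, at 0.79 and Mre11a, of the break-end complex, at 0.57. The lowest were Mus81, a crossover nuclease subunit, at -1.57, Rad51c, a recombinase paralogue, at -1.43 and Zcwpw1, a reader of Prdm9 marks, at -1.35. The median was -0.03 for 30 piRNA and early germline genes, -0.18 for 39 spermatid genes and -0.34 for 34 proteasome genes, the last a list of genes expressed in every cell.

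The start site itself was mostly bare in the standard sperm and ES cell libraries. The start-site ratio divides the mean signal from 200 bp before to 300 bp after the start site by that of the flanks 1000 to 2000 bp away. It was under 0.5 for 26 of the 34 meiotic genes in standard sperm and for 20 in ES cells, where 63.2% of all genes were so in standard sperm and 53.3% in ES cells. Among the 24 high-CpG genes it was under 0.5 for 20 (83.3%) in standard sperm and 16 (66.7%) in ES cells, against 85.4% and 73.8% of all high-CpG genes. These shares lie close to the background of the class. The ratio was lower in sperm than in ES cells for 19 of the 34 (55.9%), against 59.1% of all genes, and for 13 of the 24 (54.2%), against 62.1% of all high-CpG genes.

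Single genes departed from that pattern on few fragments. Sycp3 had a start-site ratio of 0.394 in standard sperm, from 2.23 fragments, and of 1.09 in ES cells, from 12.4 fragments. Rec8 had 0.153 in standard sperm, from 0.864 fragments, and 0.965 in ES cells, from 7.59 fragments. Both promoters were as full as their flanks in ES cells and depleted in sperm, as was Hormad1 in part, at 0.295 in standard sperm and 0.757 in ES cells. Syce3 went the other way, with 0.762 in standard sperm, from 5.23 fragments, and 0.166 in ES cells, from 2.09 fragments. Tex11 and Tex15 were above 1 in both libraries, with 1.64 and 1.49 in standard sperm and 1.25 and 1.19 in ES cells. The Tex11 ratios rest on 4.59 fragments in standard sperm and 2.55 in ES cells. Prdm9, Tex14, Hormad2 and Stra8 were also above 0.5 in both. They had 0.875, 0.810, 0.799 and 0.785 in standard sperm and 0.778, 1.11, 0.652 and 1.03 in ES cells. Spo11, Trip13 and Msh5 were bare in both, at 0.0401, 0.0497 and 0.0788 in standard sperm and 0.0251, 0.0114 and 0 in ES cells.

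**Figure D3:**
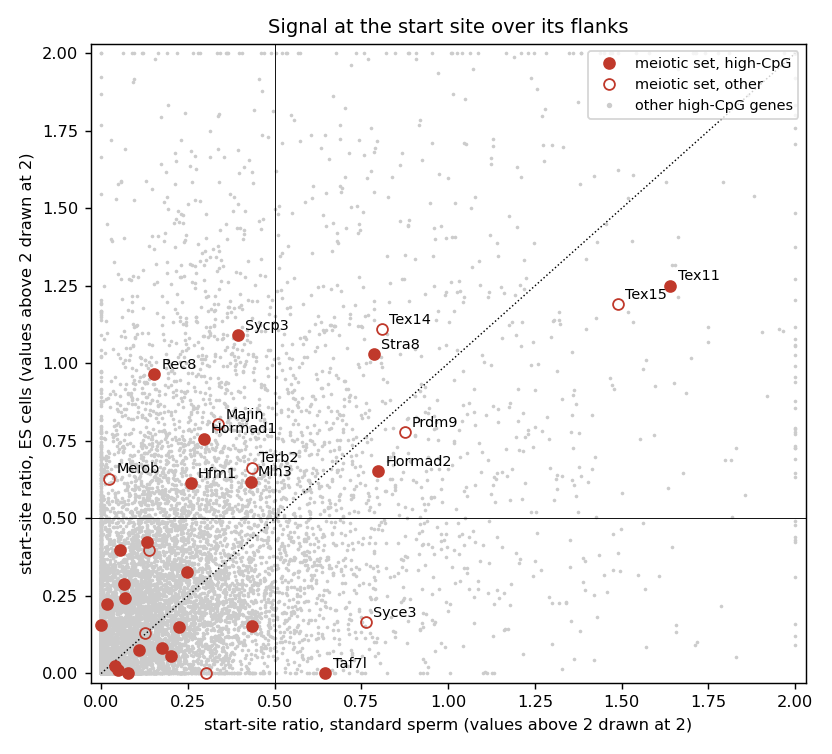
Start-site ratio of each gene in standard sperm (horizontal) and in ES cells (vertical), with the meiotic set in red and other high-CpG genes in grey; values above 2 are drawn at 2 and lines mark 0.5. Most of the set sits in the lower left, while Tex11 and Tex15 lie above 1 in both libraries.

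Pooling the 24 high-CpG promoters gave enough fragments to part the sides of the start site. Over the 200 bp upstream the ratio to the flanks was 0.187 (0.108 to 0.301) in standard sperm and 0.384 (0.277 to 0.519) in ES cells, where all high-CpG start sites had 0.291 in standard sperm and 0.346 in ES cells. Over the 300 bp downstream it was 0.231 (0.156 to 0.330) in standard sperm and 0.317 (0.237 to 0.417) in ES cells, where all high-CpG start sites had 0.169 and 0.316. The intervals of both cell types overlap on each side. The sperm values rest on 16.8 fragments upstream and 31.1 downstream. Including all 34 genes gave 0.356 (0.258 to 0.480) upstream in standard sperm and 0.425 (0.329 to 0.541) in ES cells. Start sites were not bare in every sperm digest. In unspun sperm at 50 units the 24 genes had 2.95 (0.532 to 11.3) upstream and 4.82 (1.61 to 13.7) downstream. Those values rest on 3.05 and 7.45 fragments. All high-CpG start sites had 1.36 upstream and 1.88 downstream at 50 units, and 0.726 and 0.560 at 0.5 units.

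**Figure D4:**
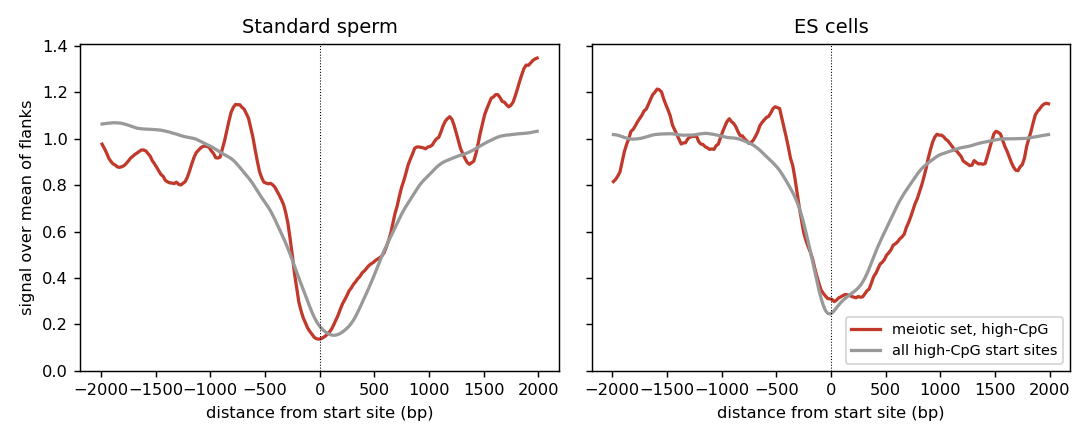
Signal along the promoter, divided by the mean of the flanks and smoothed over 5 bins of 20 bp, for the high-CpG genes of the meiotic set (red) and all high-CpG start sites (grey), in standard sperm and ES cells. In sperm the set is lowest at -20 bp, at 0.137, and all high-CpG start sites at 120 bp, at 0.153; in ES cells the lowest values are 0.298 at 20 bp and 0.245 at -20 bp.

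Along the averaged profile, the signal of the set in sperm reached 1.15 times the flanks at -780 bp, where the smooth average of all high-CpG start sites was still below its flanks. In ES cells it reached 1.14 at -520 bp. These are the highest points within 1000 bp upstream. Further out the sperm profile of the set climbs higher only downstream, to 1.35 at 1980 bp, and the ES cell profile reaches 1.21 at -1600 bp. The profiles of the set come from 24 promoters, and the positions carry no error estimate.

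In the titration of sperm chromatin only 26 of the genes had a start site in every table, and no single promoter held more than 5.09 fragments in a library. The unspun tables held 33972 to 47588 fragment equivalents each and those of supernatant and pellet held 18886 to 74929. The values were therefore pooled over the 26 genes, as signal per promoter over the average classed promoter. Without centrifugation this was 0.735 (0.425 to 1.18) at 0.5 units, 1.00 (0.635 to 1.51) at 2 units, 1.12 (0.689 to 1.71) at 10 units and 1.24 (0.790 to 1.85) at 50 units. In the supernatant it was 1.16 (0.748 to 1.72) at 1 unit, 0.827 (0.382 to 1.56) at 5 units, 1.23 (0.761 to 1.88) at 20 units and 1.1 (0.724 to 1.60) at 100 units. In the pellet it was 0.902 (0.292 to 2.11) at 1 unit, 0.804 (0.335 to 1.62) at 5 units, 0.622 (0.245 to 1.30) at 20 units and 1.47 (1.02 to 2.06) at 100 units. The intervals held 1, the level of the average promoter, in 11 of the 12 libraries, and the 100-unit pellet was the exception.

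**Figure D5:**
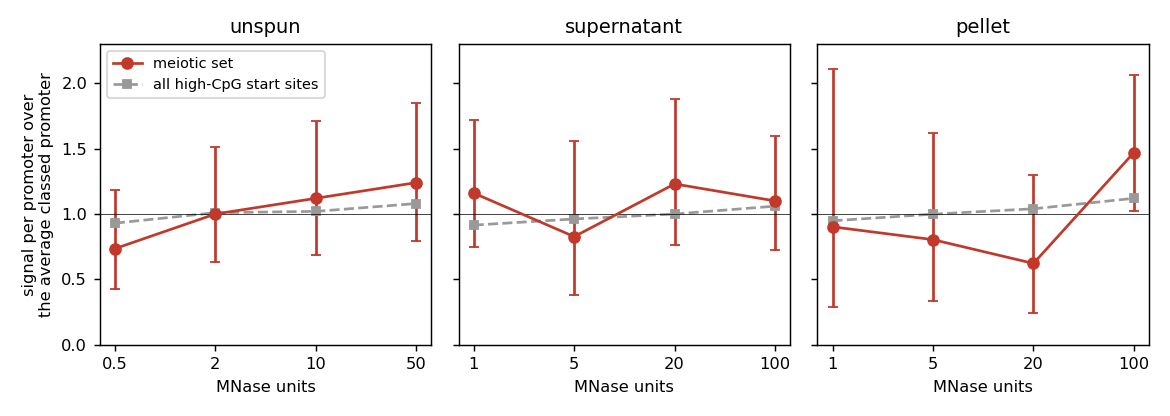
Signal per promoter of 26 meiotic genes (red, with exact 95% counting intervals) and of all high-CpG start sites (grey), over the average classed promoter, against MNase units on an even spacing, for unspun, supernatant and pellet libraries. The intervals of the set hold 1 in each library but the 100-unit pellet, at 1.47.

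A slope shared by the 3 series was 0.0676 log2 units per doubling of enzyme for the meiotic genes, with 0.107 unspun, 0.0124 in the supernatant and 0.0822 in the pellet. For all high-CpG start sites it was 0.0328, with 0.0306 unspun, 0.0314 in the supernatant and 0.0364 in the pellet. The 1-unit supernatant and pellet libraries differ in kind from the higher doses. At 1 unit 89.4% of isolated signals spanned 1 or 2 bins, against 15.3% to 30.4% at 5 to 100 units. The part of this difference in the slopes was not tested. Leaving out the highest dose of each series brought the slope of the meiotic genes to 0.00923 and leaving out the lowest brought it to 0.119. Relative to high-CpG start sites alone it was 0.0349. The slope of the set was lower than that of its class in the supernatant and higher in the unspun and pellet series. The slopes carry no error estimate, and a difference between the set and its class was not tested. Supernatant over pellet gave a log2 ratio of 0.36 at 1 unit, 0.04 at 5 units, 0.98 at 20 units and -0.42 at 100 units, and each counting interval held 0. Over the same 26 genes the standard sperm library stood at 1.11 (1.03 to 1.20) times the average promoter and the ES cell library at 0.992 (0.928 to 1.06). Against the average high-CpG promoter these values were 1.44 (1.34 to 1.56) in standard sperm and 1.12 (1.05 to 1.19) in ES cells, whereas the 12 titration libraries ran from 0.597 to 1.31 with intervals that all held 1.

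The upper bounds of 2 of these libraries, 1.27 in the 0.5-unit unspun and 1.24 in the 20-unit pellet, lay under the 1.44 of the standard library, and the others were too shallow to tell the values apart. Unspun sperm over ES cells, over 34 genes, gave log2 ratios of -0.48 (-1.15 to 0.12), -0.09 (-0.66 to 0.44), -0.11 (-0.76 to 0.48) and 0.21 (-0.36 to 0.73) from the lowest to the highest dose, and all high-CpG start sites gave 0.07, 0.20, 0.22 and 0.32. As ratios over ES cells, the 34 genes thus stood below all high-CpG start sites at each dose. In standard sperm they stood above them, at 0.08 against -0.24. Each of the 4 unspun intervals holds the value of all high-CpG start sites. These 4 comparisons share the ES cell library with the standard one.

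In the RefSeq sequences from 250 bases before to 50 after the start site, the 22 high-CpG genes of the set with a sequence resembled their class in composition. Their GC content had a median of 61%, against 62.3% for 7982 high-CpG genes, and their observed over expected CpG a median of 0.765, against 0.791. The E2F-type letters were in 14 of the 22 (63.6%), against 39.5% of the class, and the E-box in 7 (31.8%), against 10.9%. The MYB-type letters TAACNG were in 8 (36.4%), against 17.3%, and the STRA8-type letters, a C and any base before CCTCAG, in 6 (27.3%), against 9.06%. The letters TGACG, the core of the cAMP response element, were in 4 (18.2%), against 33.5%, and the whole element, in which TCA follows them, was in 0, against 3.47%. Both strands were searched, a match is a description of letters and not of binding, and the RefSeq start lay within 50 bp of the deposited one for 23 of the 28 genes. Where RefSeq lists several starts, the set took the one nearest the deposited site and other genes the first listed. The percentages of the set and of its class thus rest on unlike choices of start, as do the bands below.

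Base composition moved with the ratio of sperm over ES cells among high-CpG genes. From the lowest to the highest of 4 bands of GC content, the meiotic genes had medians of -0.03, 0.02, 0.27 and -0.09, from 4, 9, 6 and 3 genes. The other high-CpG genes had medians of -0.12 at 29.7% to 56.3% GC, -0.24 at 56.7% to 62%, -0.32 at 62.3% to 67.7% and -0.36 at 68% to 89.3%. Of the 22 high-CpG meiotic genes, 14 stood above the median of the others of their band. The bands were chosen after the values were seen, and the part of base composition in the ratios of the set was not tested.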

How the data were processed

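MNase fragments of mouse sperm and E14 ES cells were compared at promoters in 14 of 17 samples, 1 library per group; the unspun ES cells, the sperm input and the sperm H3 ChIP were not analysed here. Bowtie, SAMtools 0.1.16 and the mm9 build are named, per the submitters' processing notes. The authors deposited 6 tables of signal, a whole-number pileup in 20 bp bins over 2000 bp to each side, from fragments of 135 to 165 bp per the table names. They deposited 8 tables of counts per bin, unscaled; windows that share DNA held equal values at 50 bp per bin (in 90.2% to 95.7% of shared bins) and not at the 20 bp of the header labels, so 50 bp was used. Start sites are in mm9, and no source used here states the limits of the CpG classes. A class was carried to start sites of the same gene within 300 bp. Titration units follow the titles; the descriptions of the 5-unit and 20-unit pellets give other units.

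Symbols came from RefSeq (27264 of 28015 start sites matched in the signal tables, 16289 of 16493 in the count tables). Of several start sites of a gene, that with most signal was taken. The genes, lists and roles were chosen with earlier results of these data known. Named in full are the 6 highest and 6 lowest ratios among genes with at least 20 fragments in both libraries together, and Sycp3, Stra8, Spo11, Dmc1, Prdm9, Rec8, Tex15 and Brdt. Of the other meiotic genes the 3 highest and 3 lowest were to be named by the same rule; 1 of them is not reported here. No test was run; exact intervals (Clopper-Pearson, 95%) cover counting error only, since reads carry no molecular identifiers. The log2 ratios of single genes and their intervals were tried on simulated counts that varied by counting error only. The other steps were not tried on simulated data. Python 3.11.15, NumPy 2.4.6, pandas 2.3.3, SciPy 1.17.1 and matplotlib 3.10.9 were used.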

Additional observations from a re-analysis of the deposited data

How the results depend on the processing

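Each group held 1 library, which leaves no replicate to omit and no pairing of sperm with ES cells. Supernatant and pellet were compared at matched doses, without a test. Counted within 200 bp, the median log2 ratio of the 34 genes was -0.05 and the pooled ratio -0.08, with 13 genes higher and 8 lower. There 13 of the 34 ratios changed sign, on medians of 1.5 fragments in standard sperm and 3.18 in ES cells. Among the 10 whose interval left out 0 this was Syce3, at 2.24. Others such as Meiob (-1.39), Msh5 (1.38) and Hormad1 (-1.36) turned as well, Msh5 on 0.636 fragments in standard sperm and 0 in ES cells. At counts this low the pseudocount carries much of the ratio and can put it above 0. Trip13 stood at 0.79 within 200 bp on 0.0909 fragments in standard sperm and 0 in ES cells. Over 2000 bp to each side the median was -0.04, with 5 higher and 3 lower, and 9 ratios changed sign, none of those 10. A pseudocount of 0.1 fragments gave 8 lower, since Stag3, Stra8 and Msh5 lie beside the limit. Shares of high-CpG signal only gave a median of 0.39, a pooled ratio of 0.32 and 1 gene lower. The upstream ratio in standard sperm was 0.356 over all 34 genes. The dose slope was 0.0152 over the whole span, 0.119 without the lowest doses and 0.00923 without the highest; relative to all start sites of each table, an alternative chosen after seeing the data, it was 0.0688. It was 0.103 within 200 bp and 0.0349 relative to high-CpG start sites. Summing over all start sites, a pseudocount of 5 or a minimum of 20 fragments left the median of the 34 genes between 0.11 and 0.21. Shares of all genes beyond 1.5-fold, or changing sign, under these other settings are not given here. The counts of genes in this section therefore describe the settings and do not set the 34 genes against other genes. The intervals of single genes are wide, and 24 hold 0.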
